A study of Homo sapiens with 6 samples.

Results

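Transcripts of 10 enzymes that activate fatty acids or attach them to phospholipids were measured in MDA-MB-231 cells with and without overexpressed cannabinoid receptor CB1. The enzymes were the long-chain acyl-CoA synthetases ACSL1, ACSL3 and ACSL5, the lysophosphatidylcholine acyltransferases LPCAT1, LPCAT2 and LPCAT4, the membrane-bound O-acyltransferases MBOAT1, MBOAT2 and MBOAT7, and the acylglycerolphosphate acyltransferase AGPAT2. They were chosen by gene name among protein-coding genes, and all 10 were found among the 58735 genes listed. All 10 also passed the filter on low values, which left 15289 genes for testing. MDA-MB-231 is an established triple-negative breast cancer line, that is, a line that lacks the oestrogen and progesterone receptors and amplified HER2.

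The CB1 group was 3 libraries titled CB, in which CB1 was overexpressed, and the Vector group was 3 libraries titled Vector. The treatment field of the labels reads CB1 for the first group and DMSO for the second, and whether the CB1 cells also received DMSO is not stated in those labels. The study's methods describe stable lines made by lentiviral transduction of a pCDH plasmid, selection with puromycin and screening of pooled clones. Differences between the 2 lines other than CB1 itself, such as those arising during selection, cannot be told apart from the effect of CB1. Whether the 3 libraries of a group were grown separately is not stated. The p-values therefore reflect how far these libraries differ among themselves, which may be technical variation.

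Fatty acids enter lipid synthesis only after an acyl-CoA synthetase has joined them to coenzyme A. Phospholipids are first built by acyltransferases such as the AGPAT enzymes, which convert lysophosphatidic acid to phosphatidic acid. They are later remodelled in the Lands cycle, in which a phospholipase removes an acyl chain and a lysophospholipid acyltransferase of the LPCAT or MBOAT families puts another in its place. These enzymes are among those that influence which saturated, monounsaturated and polyunsaturated chains a cell's membranes hold. The polyunsaturated ones are the chains that are oxidised in ferroptosis.

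On GRCh38, the build of the gene coordinates in the files, the synthetase genes were ACSL1 at chr4:184755595-184826818 (minus strand, ENSG00000151726), ACSL3 at chr2:222860934-222944639 (plus strand, ENSG00000123983) and ACSL5 at chr10:112374018-112428380 (plus strand, ENSG00000197142). The LPCAT genes were LPCAT1 at chr5:1456480-1523977 (minus strand, ENSG00000153395), LPCAT2 at chr16:55508998-55586670 (plus strand, ENSG00000087253) and LPCAT4 at chr15:34358618-34367278 (minus strand, ENSG00000176454). The MBOAT genes were MBOAT1 at chr6:20102145-20212399 (minus strand, ENSG00000172197), MBOAT2 at chr2:8852690-9003813 (minus strand, ENSG00000143797) and MBOAT7 at chr19:54173412-54189882 (minus strand, ENSG00000125505), and AGPAT2 was at chr9:136673143-136687423 (minus strand, ENSG00000169692). Reads were counted over all exons of each gene, untranslated regions included.

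The libraries held 16957881 to 18833661 counts. CNR1, which encodes CB1, had 6465, 7703 and 7353 counts in the CB1 libraries, against 7, 6 and 4 counts in the Vector libraries, so the labels and the overexpressed gene matched in all 6. Across tested genes, the correlation of log2 levels was 0.979 to 0.985 within CB1, 0.989 to 0.990 within Vector and 0.953 to 0.963 between the groups. CB1 replicate 1 stood apart from the other CB1 libraries, with a mean chi-square per gene of 19.7 and 15.8 against them, compared with 4.54 between those other 2 CB1 libraries and 1.83 to 2.72 between Vector libraries. For the 5 enzymes in which CB1 replicate 1 lay furthest from Vector, the change is therefore also given without it. Of 5 genes that mark MDA-MB-231, all 5 were expressed, with a summed level of 601 to 717 FPKM (fragments per kilobase of exon, scaled to 1000000 mapped fragments) in CB1 and 486 to 510 FPKM in Vector. VIM made up most of this sum in both groups. VIM, CD44 and KRT18 were called higher in CB1 (log2 change 0.46, 0.46 and 0.66). EGFR was called lower (log2 change -0.44), and CAV1 was not called (log2 change -0.01). Of 5 receptor and luminal genes that a triple-negative line lacks or keeps low, 1 of 3 tested was called, higher in CB1, and the summed level was 10.4 to 11.2 FPKM in CB1 and 10.02 to 10.15 FPKM in Vector. Most of that sum was ERBB2, which was not called. The called gene was GATA3 (log2 change 0.44), and FOXA1 was not called (log2 change 0.42). ESR1 and PGR, the 2 hormone receptor genes of the list, had FPKM means of 0.0149 and 0.0365 in CB1 and 0.0152 and 0.0398 in Vector. Genes of the embryonic kidney line that the study's methods name as a producer of lentivirus moved with the groups: all 5 tested of a list of 12 were higher in CB1, and the summed level of the list was 18.3 to 19.5 FPKM in CB1 and 9.33 to 10.1 FPKM in Vector. GATA2 and SIX2 made up most of that sum. NEFL, NEFM and INA passed the filter on low values only through their levels in CB1. Their FPKM means were 1.44, 1.15 and 1.13 in CB1, against 0.080, 0.17 and 0.071 in Vector. That all tested genes of the list were higher was thus partly fixed by the filter. NEFL had 97, 130 and 103 counts in CB1, against 9, 3 and 6 counts in Vector, and INA had 64, 62 and 66 counts in CB1, against 8, 3 and 1 in Vector. Of the 7 genes of the list below the filter, 5 had more counts in every CB1 library than in any Vector library, CDH7 with none in Vector. The other 2 went the opposite way. EYA1 had 44, 58 and 43 counts in CB1, against 73, 67 and 57 in Vector, which overlapped. MAP2 had 47, 37 and 46 counts in CB1, against 67, 105 and 67 in Vector, without overlap. CDKN2A and MTAP, genes of a region at 9p21 that is deleted in MDA-MB-231, had 469, 360 and 333 counts and 74, 64 and 64 counts in CB1, against 28, 9 and 33 counts and 10, 2 and 6 counts in Vector. CDKN2B, of the same region, had 2, 12 and 7 counts in CB1, against 1, 2 and 0 counts in Vector. Whether the CB1 libraries hold other cells or their RNA was not tested, nor was any part of these in the results on the acyl-chain enzymes.

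Levels are given below as counts per 1000000 counts (CPM), scaled for library composition by the trimmed mean of M-values (TMM). Each gene was tested with edgeR's quasi-likelihood test, and a gene was called higher or lower where its p-value, adjusted by Benjamini-Hochberg over all 15289 genes, was under 0.05. Over all genes, 49.8% were called, 24.4% higher and 25.4% lower in CB1. The 10 enzymes split into 6 called lower, 2 called higher and 2 not called, and none changed by more than 2-fold. Their median log2 change was -0.37, against -0.002 over all genes tested. The 10 were chosen with earlier results of these data known, so this contrast is a description and not a test. In all 10 the CPM values of the 3 CB1 libraries did not overlap those of the 3 Vector libraries, which was also so for 58.9% of all tested genes. As these are bulk samples, fewer cells that express a gene and less RNA per cell cannot be told apart.

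**Figure D1:**
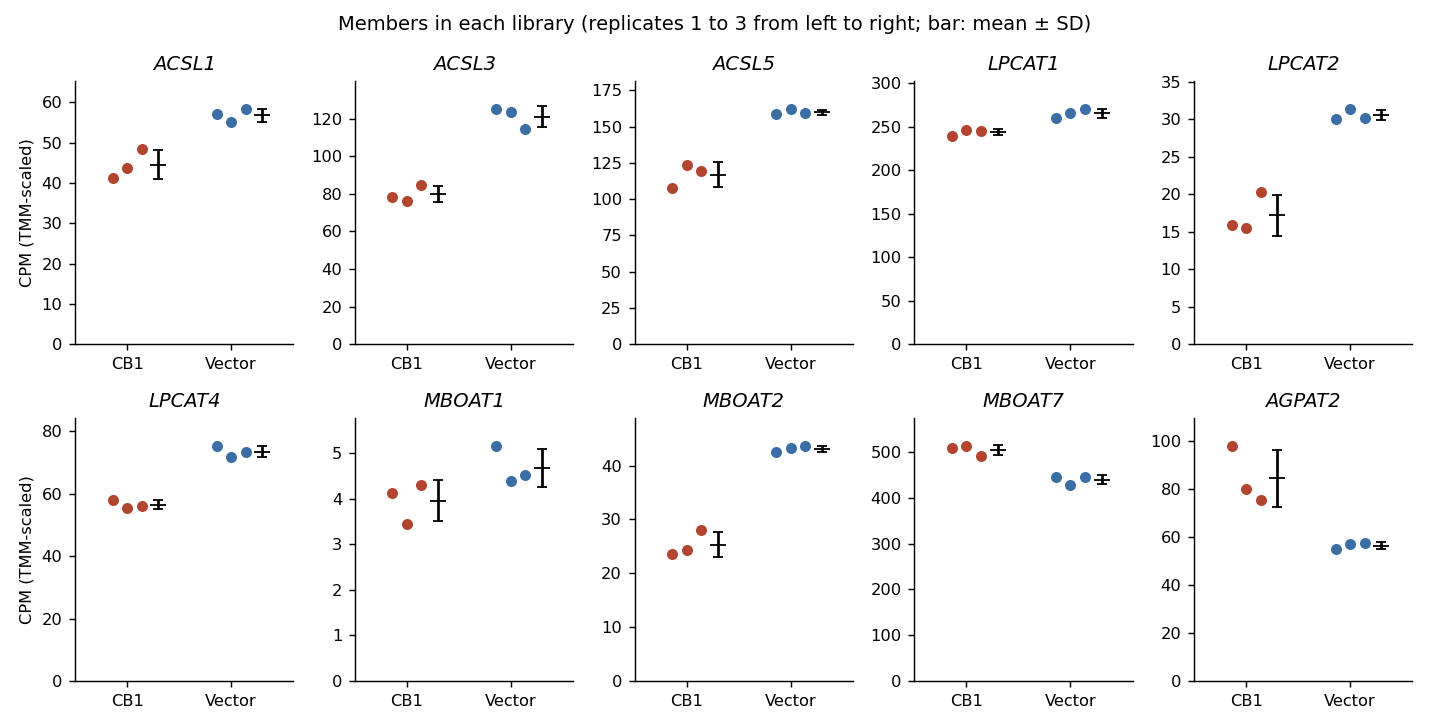
CPM of the 10 enzymes in the 3 CB1 (red, left) and 3 Vector (blue, right) libraries, replicates 1 to 3 from left to right, with the mean ± SD in black; each axis starts at 0. The 2 groups do not overlap in any panel, with the CB1 points below the Vector points in 8 panels and above them for MBOAT7 and AGPAT2.

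All 3 synthetases were lower in CB1. ACSL3, which resides on the endoplasmic reticulum and lipid droplets and is known for activating monounsaturated fatty acids, fell the most of the 3. It had 78.4, 76.3 and 84.5 CPM in CB1, against 124.9, 123.5 and 114.4 CPM in Vector. The highest CB1 library was thus 29.9 CPM below the lowest Vector library. Its log2 change was -0.60 ± 0.07 (SE, 95% interval -0.76 to -0.44), or 1.52-fold lower, with an edgeR adjusted p of 4.0e-05.

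ACSL5 is a synthetase of mitochondria and the endoplasmic reticulum and the most abundant of the 3 per length. It had 107.4, 123.8 and 119.6 CPM in CB1, against 158.4, 162.0 and 159.5 CPM in Vector. The Vector values lay within a few CPM of each other, while CB1 replicate 1 was the lowest of the CB1 libraries. The log2 change was -0.45 ± 0.07 (SE, 95% interval -0.61 to -0.29), or 1.37-fold lower (edgeR adjusted p = 2.8e-04), and -0.39 without CB1 replicate 1. The exons of ACSL5 share 144 bases (3.40% of its exon length) with ZDHHC6, a palmitoyltransferase gene on the opposite strand, and 224 bases (5.29%) with an antisense RNA gene. ZDHHC6 itself was lower in CB1, with a log2 change of -0.95 (edgeR adjusted p = 2.4e-06). No source used here gives the strand setting of the read counting, so reads of the shared bases cannot be assigned with certainty.

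ACSL1, known for feeding fatty acids to triacylglycerol synthesis and to oxidation in liver, fat and muscle, changed the least of the 3. It had 41.3, 43.8 and 48.4 CPM in CB1, against 57.1, 55.0 and 58.3 CPM in Vector. CB1 replicate 3 came nearest to Vector, at 6.58 CPM below the lowest Vector library. ACSL1 changed by -0.35 ± 0.08 on the log2 scale (SE, 95% interval -0.53 to -0.17), or 1.28-fold lower (edgeR adjusted p = 0.0035), and -0.30 without CB1 replicate 1.

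For 8 of the 10 enzymes, 13 RefSeq promoter windows (250 bases before to 50 after an annotated start, GRCh38) were searched on both strands for 5 motifs (LPCAT2 and MBOAT1 were not searched). ACSL1 and ACSL3 are shown because these 2 of the enzymes called lower held a match. The motifs were a sterol element (TCACNCCAC, in 1.13% of all 35116 windows), the E-box (CACGTG, 7.26%), the NF-Y box (CCAAT, 34.6%), the AP-1 site (TGANTCA, 7.71%) and an ATF4 element (TGATGNAA, 3.62%). ACSL1 matched the sterol element and the NF-Y box in 1 of its 5 windows and the AP-1 site in another, and ACSL3 matched the NF-Y box. The stretches are on the strand of the gene, 5′ to 3′, with the matched letters in capitals, at chr4:184805777-184805803 (minus), chr4:184805754-184805778 (minus), chr4:184812282-184812308 (minus) and chr2:222860951-222860975 (plus).
ACSL1 sterol element: gtggagcaGTGGGGTGActttgctgct
ACSL1 NF-Y box: ctggctgcccATTGGcctatcctcc
ACSL1 AP-1 site: gggtcattcaTGACTCAgtagatgttt
ACSL3 NF-Y box: cgctcgcgggCCAATgggtggcagc
The sterol element and the first NF-Y box are read on the other strand. Which of the 5 ACSL1 starts is used in these cells was not measured, and the percentages above are per window. For the ACSL1 window with the sterol element and the NF-Y box, bases just after the start were found in no GENCODE transcript of ACSL1. The other 3 windows of ACSL1 and those of ACSL5, LPCAT1, LPCAT4, MBOAT2, MBOAT7 and AGPAT2 held none of these letters, which says only that they are not in these windows.

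The 4 long-chain synthetases expressed in this line kept broadly similar proportions while their sum was lower in CB1. Summed over ACSL1, ACSL3, ACSL4, ACSL5 and the barely detected ACSL6, the level was 57.4, 61.6 and 64.1 FPKM in CB1, against 86.5, 87.8 and 83.7 FPKM in Vector. ACSL5 made up 45.4% ± 2.17 of the sum in CB1 and 44.5% ± 1.02 in Vector (SD, n = 3 each). ACSL3 made up 18.1% ± 0.92 in CB1 and 19.7% ± 0.49 in Vector, and ACSL1 made up 11.6% ± 0.27 in CB1 and 10.7% ± 0.55 in Vector. These small shifts did not overlap between the groups. By library, ACSL3 held 19.1%, 17.2% and 18.1% in CB1, against 20.1%, 19.8% and 19.2% in Vector. ACSL1 held 11.6%, 11.4% and 11.9% in CB1, against 10.6%, 10.1% and 11.2% in Vector. ACSL4, the synthetase that prefers arachidonic and adrenic acid and is not among the 10, was looked up after its values were seen. It made up 24.8% ± 1.42 in CB1 and 25.1% ± 1.02 in Vector. Its own level was 89.8, 92.0 and 109.0 CPM in CB1, against 140.5, 142.9 and 126.5 CPM in Vector, which is a log2 change of -0.50 (edgeR adjusted p = 5.6e-04). Thus the arachidonate-preferring enzyme and the other 3 were all lower, with log2 changes between -0.60 and -0.35, and their shares of the sum differed by at most a few percentage points between the groups.

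**Figure D2:**
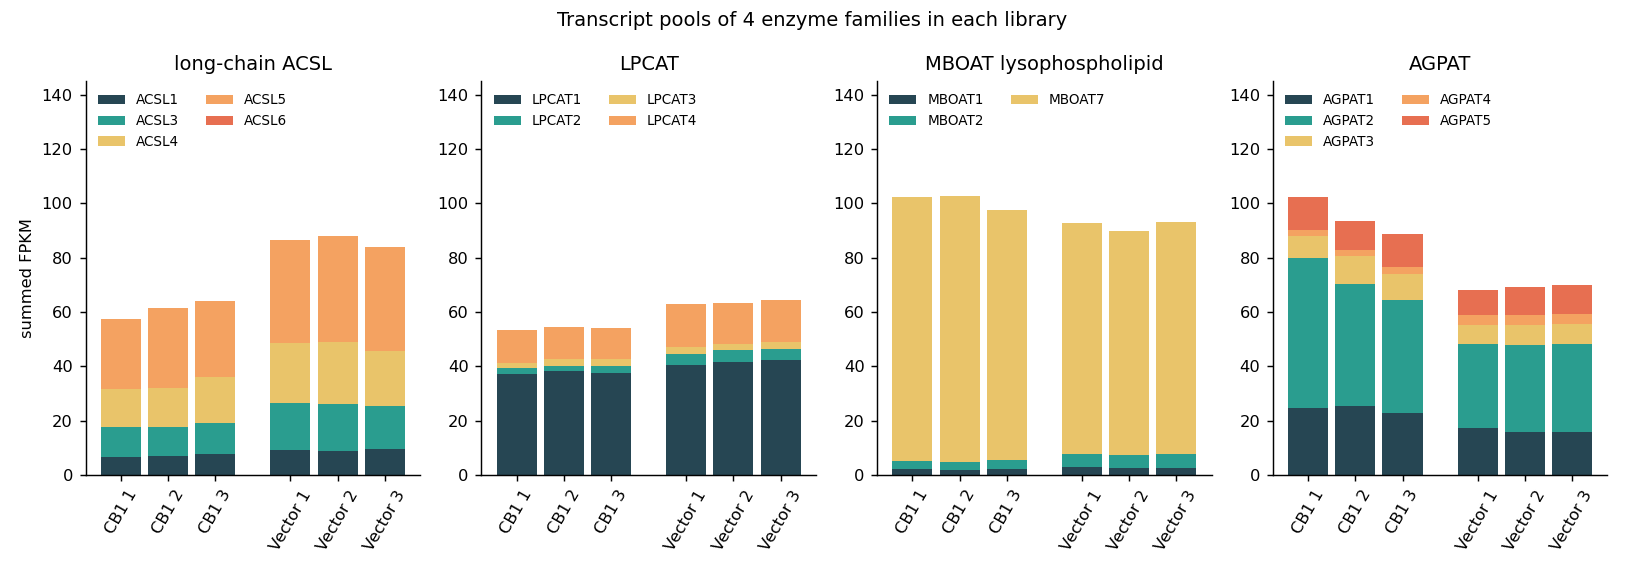
Summed FPKM of 4 enzyme families in each library, CB1 on the left and Vector on the right of each panel, with 1 colour per gene; axes start at 0. The ACSL sum averages 61.0 FPKM in CB1 and 86.0 FPKM in Vector with similar colours throughout, the LPCAT sum 54.0 and 63.6 FPKM, the MBOAT sum 100.7 and 91.9 FPKM and the AGPAT sum 94.7 and 69.1 FPKM.

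Among the LPCAT enzymes, LPCAT2 had the largest log2 change of the 10 enzymes. LPCAT2 acylates lyso-platelet-activating factor and lysophosphatidylcholine and is best known from inflammatory cells, where it makes platelet-activating factor. It had 15.8, 15.4 and 20.3 CPM in CB1, against 30.1, 31.3 and 30.2 CPM in Vector. CB1 replicate 3 was the highest of its group but still 9.78 CPM below the lowest Vector library. For LPCAT2 the log2 change was -0.83 ± 0.11 (SE, 95% interval -1.06 to -0.59), or 1.78-fold lower, with an edgeR adjusted p of 6.0e-05. Of all tested genes, 5.69% had a lower log2 change than LPCAT2. LPCAT2 shares 190 exon bases (2.55%) with a lincRNA gene that had 10 counts in all CB1 libraries together and 7 counts in all Vector libraries together.

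LPCAT4, an acyltransferase described for lysophosphatidylethanolamine and other lysophospholipids, had 58.0, 55.5 and 56.0 CPM in CB1, against 75.3, 71.9 and 73.4 CPM in Vector. Its coefficient of variation was 2.41% in CB1 and 2.37% in Vector, so the groups were equally tight and lay 13.8 CPM apart at their nearest. The log2 change was -0.38 ± 0.07 (SE, 95% interval -0.53 to -0.23), or 1.30-fold lower (edgeR adjusted p = 8.1e-04).

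LPCAT1, which makes dipalmitoyl phosphatidylcholine in lung surfactant and favours saturated acyl chains, was not called. It had 239.6, 245.9 and 245.2 CPM in CB1, against 259.7, 266.4 and 270.3 CPM in Vector. Although the groups did not overlap, the log2 change was -0.12 ± 0.06 (SE, 95% interval -0.26 to 0.01) with an edgeR adjusted p of 0.12. Without CB1 replicate 1 it was -0.11 (edgeR adjusted p = 0.064). LPCAT1 was called lower only where the scaling changed: with library totals alone (log2 change -0.20, edgeR adjusted p = 0.017) and with limma on TPM, which is FPKM rescaled to the same total in each library (log2 change -0.25, adjusted p = 0.0096). These 2 scalings also moved the median of all genes, to -0.08 and -0.12 on the log2 scale. With limma on TPM 35.2% of the called genes were higher in CB1, against 49.0% with TMM scaling.

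With LPCAT1 less changed than LPCAT2 and LPCAT4, the makeup of the LPCAT family differed between the groups. LPCAT1 made up 69.8%, 70.3% and 69.2% of the family's summed FPKM in CB1, against 64.3%, 65.7% and 65.5% in Vector. LPCAT2 made up 4.02%, 3.85% and 4.998% in CB1, against 6.50%, 6.75% and 6.38% in Vector. LPCAT4 made up 21.9% ± 0.84 in CB1 and 24.4% ± 0.71 in Vector (SD, n = 3 each). The remaining member, LPCAT3, which places polyunsaturated chains into phosphatidylcholine and was also looked up afterwards, held 4.08% ± 0.64 in CB1 and 3.83% ± 0.28 in Vector. Its level overlapped between the groups, at 8.36, 11.3 and 11.5 CPM in CB1 and 11.5, 10.4 and 12.2 CPM in Vector, and it was not called (log2 change -0.13, edgeR adjusted p = 0.48).

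The MBOAT enzymes went in both directions. MBOAT2, which prefers monounsaturated chains and acylates lysophosphatidylethanolamine, was lower in CB1. It had 23.5, 24.3 and 28.0 CPM in CB1, against 42.4, 43.2 and 43.6 CPM in Vector. The coefficient of variation was 9.33% in CB1 and 1.41% in Vector. For MBOAT2 the log2 change was -0.77 ± 0.09 (SE, 95% interval -0.96 to -0.58), or 1.70-fold lower, with an edgeR adjusted p of 2.3e-05, and -0.72 without CB1 replicate 1. Of all tested genes, 6.99% had a lower log2 change than MBOAT2. The intervals of MBOAT2 and LPCAT2 lay wholly below those of LPCAT1, LPCAT4 and ACSL1.

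MBOAT1, which acylates lysophosphatidylserine and lysophosphatidylethanolamine with monounsaturated chains, was the least covered of the 10. It had 70, 63 and 76 counts in CB1, against 90, 78 and 79 counts in Vector, or 4.12, 3.45 and 4.30 CPM in CB1 and 5.16, 4.38 and 4.51 CPM in Vector. The groups were only 0.083 CPM apart at their nearest. The log2 change was -0.24 ± 0.17 (SE, edgeR adjusted p = 0.25), and its 95% interval of -0.61 to 0.12 includes both no change and changes as large as that of ACSL3. Without CB1 replicate 2 the log2 change was -0.15 (edgeR adjusted p = 0.51). MBOAT1 was not called under any of the 19 alternatives tried.

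MBOAT7, which places arachidonic acid into lysophosphatidylinositol, was the most abundant of the 10 per length and was higher in CB1. It had 508.6, 513.2 and 491.0 CPM in CB1, against 445.9, 427.8 and 445.6 CPM in Vector. The lowest CB1 library was 45.1 CPM above the highest Vector library. The log2 change was 0.20 ± 0.06 (SE, 95% interval 0.06 to 0.33), or 1.15-fold higher, with an edgeR adjusted p of 0.020. This call did not survive 8 of the 19 alternatives, although the log2 change stayed above 0 in all of them. It was lost with library totals alone (log2 change 0.12, edgeR adjusted p = 0.11), with limma on TPM (0.07, adjusted p = 0.30), with no filter on low values (0.15, edgeR adjusted p = 0.15) and with the replicate number as a block (0.20, edgeR adjusted p = 0.075). It was also lost without CB1 replicate 2 (edgeR adjusted p = 0.054) and without Vector replicate 1 (edgeR adjusted p = 0.067), replicate 2 (edgeR adjusted p = 0.12) or replicate 3 (edgeR adjusted p = 0.083).

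Within the MBOAT family, MBOAT7 made up 94.9% ± 0.54 of the summed FPKM in CB1 and 91.7% ± 0.12 in Vector (SD, n = 3 each). MBOAT2 made up 2.65%, 2.72% and 3.23% in CB1, against 5.25%, 5.57% and 5.41% in Vector. MBOAT1 made up 2.20% ± 0.28 in CB1 and 2.88% ± 0.21 in Vector. The FPKM of MBOAT1 rests on 1 annotated transcript of 1794 bases, and that of MBOAT2 on 10 transcripts that together cover 8798 bases, so their ratio depends on these gene models.

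AGPAT2, which makes phosphatidic acid from lysophosphatidic acid and whose loss causes a congenital lipodystrophy, had the largest increase of the 10. It had 97.9, 80.2 and 75.3 CPM in CB1, against 54.8, 57.1 and 57.3 CPM in Vector. CB1 replicate 1 was far above the other CB1 libraries, and the coefficient of variation was 14.1% in CB1 and 2.49% in Vector. For AGPAT2 the log2 change was 0.58 ± 0.10 (SE, 95% interval 0.37 to 0.79), or 1.498-fold higher, with an edgeR adjusted p of 3.4e-04. Without CB1 replicate 1 it was 0.47, and AGPAT2 was still called (edgeR adjusted p = 1.6e-08). That smaller p-value is not particular to AGPAT2. In the same fit every other called enzyme also had a smaller one, such as ACSL3 (edgeR adjusted p = 5.6e-12) and LPCAT2 (edgeR adjusted p = 1.0e-09). Of all tested genes, 85.1% had a lower log2 change.

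In the AGPAT family, the summed FPKM was 102.2, 93.3 and 88.5 in CB1, against 68.2, 69.3 and 69.8 in Vector. AGPAT2 made up 53.8%, 48.2% and 46.9% of it in CB1, against 45.1%, 46.6% and 46.4% in Vector, so its share was clearly larger only in CB1 replicate 1. AGPAT1, an enzyme of the same step, made up 25.8% ± 1.505 in CB1 and 23.7% ± 1.61 in Vector. AGPAT4, a family member known for its expression in brain, held 2.39% ± 0.24 in CB1 and 5.27% ± 0.14 in Vector.

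**Figure D3:**
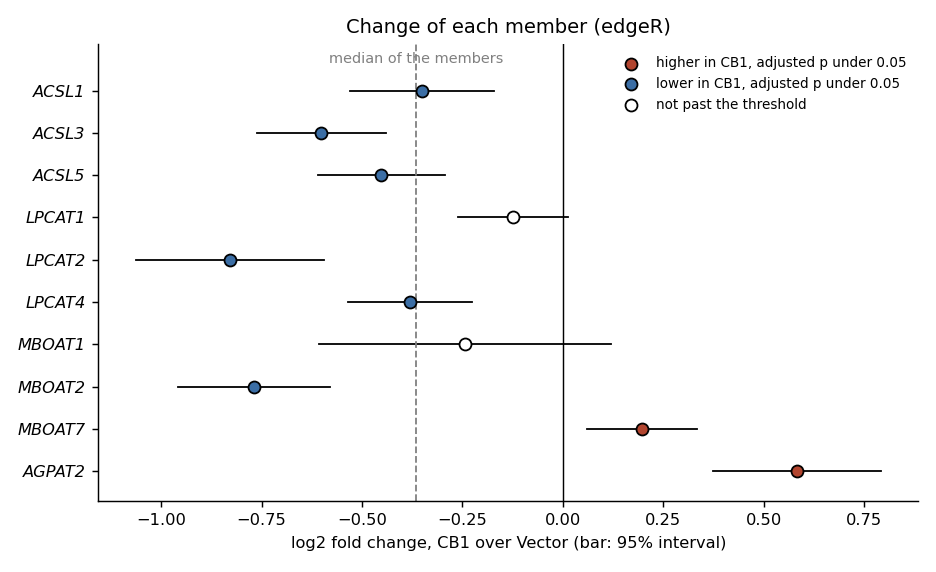
Log2 fold change of each enzyme, CB1 over Vector, with its 95% interval from edgeR (6 libraries); blue is called lower, red called higher and white not called, and the dashed line is the median of the 10 at -0.37. The intervals of LPCAT1 and MBOAT1 cross 0, and LPCAT2 at -0.83 and MBOAT2 at -0.77 lie furthest to the left.

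The order of the levels per length changed at the top of the list. On the FPKM scale the order in CB1 was MBOAT7 (95.6 ± 3.19), AGPAT2 (47.2 ± 7.02), LPCAT1 (37.6 ± 0.48), ACSL5 (27.7 ± 1.94), LPCAT4 (11.8 ± 0.36), ACSL3 (11.05 ± 0.48), ACSL1 (7.10 ± 0.51), MBOAT2 (2.88 ± 0.24), LPCAT2 (2.32 ± 0.34) and MBOAT1 (2.21 ± 0.24; SD, n = 3). In Vector it was MBOAT7 (84.3 ± 1.82), LPCAT1 (41.5 ± 0.97), ACSL5 (38.3 ± 0.55), AGPAT2 (31.8 ± 0.90), ACSL3 (16.9 ± 0.77), LPCAT4 (15.5 ± 0.31), ACSL1 (9.16 ± 0.26), MBOAT2 (4.97 ± 0.09), LPCAT2 (4.16 ± 0.11) and MBOAT1 (2.65 ± 0.23; SD, n = 3). AGPAT2 thus stood 2nd in CB1 and 4th in Vector, and ACSL3 stood 6th in CB1 and 5th in Vector. The libraries of neighbouring genes overlapped for LPCAT4 with ACSL3 and for LPCAT2 with MBOAT1 in CB1, so these pairs have no order there. On the TPM scale the ranks were the same, and MBOAT2 with LPCAT2 in CB1 and ACSL3 with LPCAT4 in Vector overlapped as well. Across the 10 enzymes the coefficient of variation of CPM was larger in CB1 for 8, up to 15.7% for LPCAT2 in CB1, where its Vector value was 2.27%. The CB1 library furthest from the Vector mean was replicate 1 for 5 enzymes and replicate 2 for 5.

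**Figure D4:**
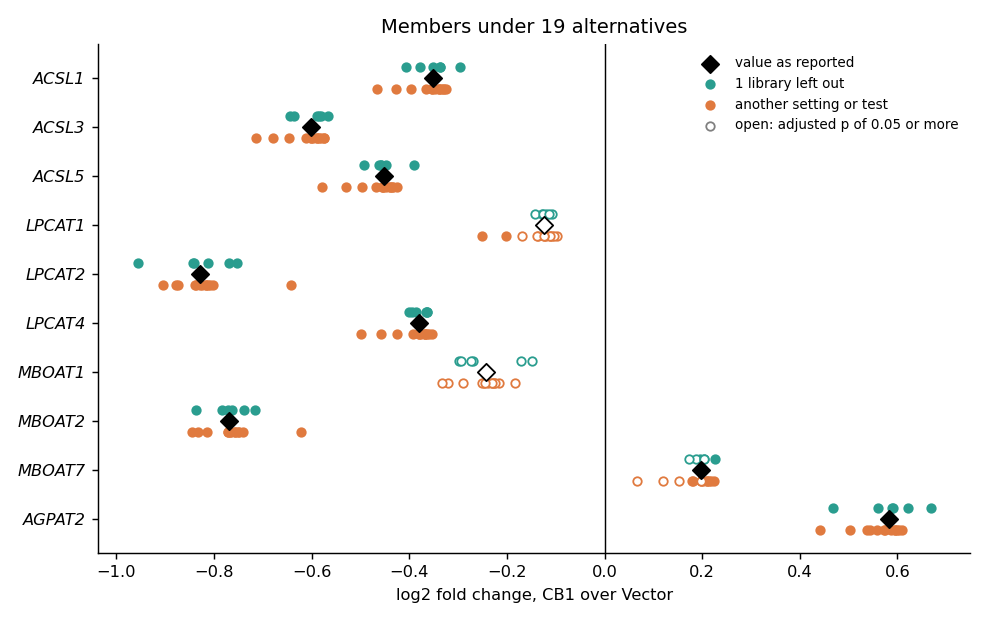
Log2 fold change of each enzyme, CB1 over Vector, as reported (black diamonds), with 1 library left out (green) and with another filter, scaling, test or the replicate block (orange); open symbols had an adjusted p of 0.05 or more. Every symbol of an enzyme lies on the same side of 0, and the symbols change between open and filled only for LPCAT1 and MBOAT7.

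Other enzymes of the same steps were taken from lists of related genes, shown in the plot of changes by pathway. Of 15 acyl-CoA synthetases tested, 8 were lower and 4 were higher in CB1, beside 25.4% and 24.4% of all tested genes. Their median log2 change was -0.37. Apart from ACSL1, ACSL3 and ACSL5, these were 5 lower and 4 higher of 12. ACSS3, a mitochondrial short-chain synthetase, had 23.1, 23.4 and 25.8 CPM in CB1, against 59.3, 62.9 and 61.6 CPM in Vector (log2 change -1.35 ± 0.08 SE, edgeR adjusted p = 2.6e-07). ACSS2, which makes acetyl-CoA from acetate in the cytosol and nucleus, had 58.2, 63.2 and 56.0 CPM in CB1, against 85.4, 92.7 and 88.1 CPM in Vector (log2 change -0.59 ± 0.08 SE, edgeR adjusted p = 6.5e-05). Fatty acid transport proteins, which also act as acyl-CoA synthetases, went in both directions. SLC27A1 had a log2 change of -0.54 ± 0.09 and SLC27A4 one of 0.45 ± 0.08 (SE, edgeR adjusted p = 3.3e-04 and 4.1e-04).

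Of 15 lysophospholipid acyltransferases tested, 7 were lower and 4 were higher in CB1, beside 25.4% and 24.4% of all tested genes. Their median log2 change was -0.23, and 7 in all were called without Vector replicate 1 or without Vector replicate 3. Apart from the 7 described above, 4 were lower and 2 higher of 8. AGPAT4 had 18.9, 19.7 and 20.5 CPM in CB1, against 31.2, 32.3 and 30.9 CPM in Vector (log2 change -0.68 ± 0.08 SE, edgeR adjusted p = 3.7e-05). AGPAT1 had 88.8, 91.3 and 84.0 CPM in CB1, against 62.6, 55.9 and 57.1 CPM in Vector (log2 change 0.59 ± 0.08 SE, edgeR adjusted p = 6.0e-05), nearly the change of AGPAT2. AGPAT3, which is known for placing docosahexaenoic acid in retina, changed by 0.40 ± 0.08 on the log2 scale (SE, edgeR adjusted p = 0.0017). TAZ, here the gene of the cardiolipin-remodelling enzyme tafazzin, changed by -0.28 ± 0.09 on the log2 scale (SE, edgeR adjusted p = 0.018).

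Of 8 glycerolipid and sterol acyltransferases tested, 3 were lower and none was higher in CB1, beside 25.4% and 24.4% of all tested genes. Their median log2 change was -0.16. GPAT3, which adds the first acyl chain to glycerol 3-phosphate, averaged 27.8 ± 0.83 CPM in CB1 and 40.1 ± 1.01 CPM in Vector (SD, n = 3 each; log2 change -0.53, edgeR adjusted p = 1.5e-04). DGAT1, which completes triacylglycerol, averaged 32.8 ± 1.09 CPM in CB1 and 41.0 ± 1.54 CPM in Vector (SD, n = 3 each; log2 change -0.32, edgeR adjusted p = 0.0044). SOAT1, which esterifies cholesterol, averaged 98.6 ± 6.38 CPM in CB1 and 115.5 ± 1.27 CPM in Vector (SD, n = 3 each; log2 change -0.23, edgeR adjusted p = 0.019).

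**Figure D5:**
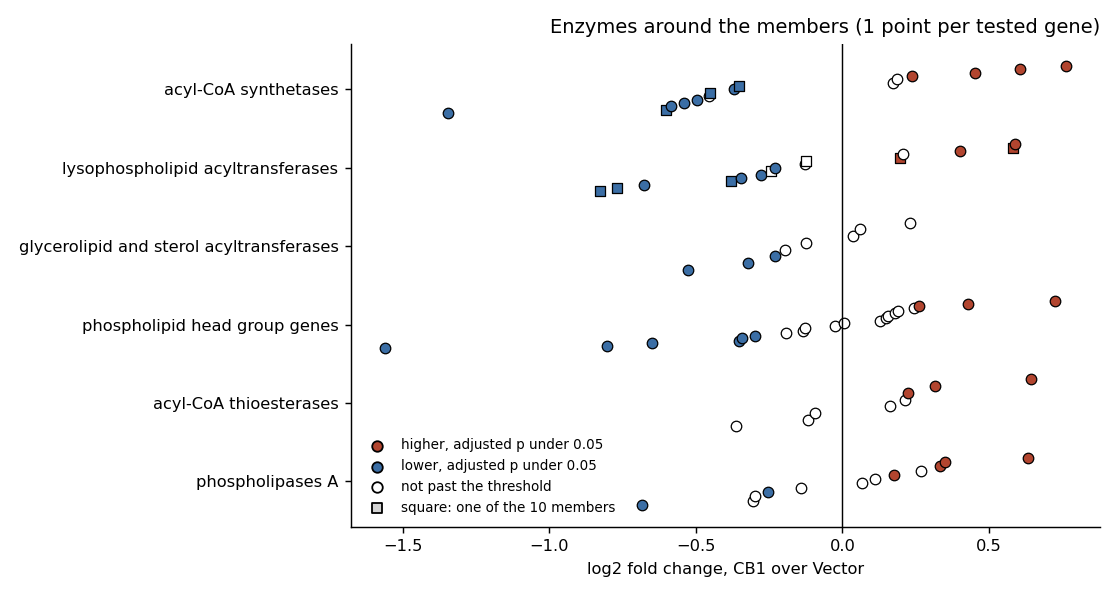
Log2 fold change, CB1 over Vector, of every tested gene of 6 lists; blue is called lower, red called higher, white not called, and squares are the 10 enzymes. The acyl-CoA synthetases and lysophospholipid acyltransferases hold 8 and 7 genes called lower and 4 each called higher, the glycerolipid and sterol acyltransferases none called higher, and the thioesterases none called lower. Of all tested genes, 25.4% were called lower and 24.4% higher.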

How the data were processed

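Poly(A)-selected RNA of 3 CB1 and 3 Vector libraries was sequenced (NEBNext Ultra kit, Illumina). The authors deposited, for each library, raw read counts per gene and FPKM. HISAT2 2.0.5 and featureCounts 1.5.0-p3 are the tools listed in the submitters' processing notes. Per the study's methods, uniquely mapped reads in exons were used, which can undercount genes with near-identical copies. Gene models matched GENCODE release 29 (GRCh38) in coordinates for 58735 of 58735 genes, and the exon lengths of all 10 members matched. The study's own test, by Cufflinks, was not run. Its threshold of more than a 2-fold change was tried as an alternative.

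Genes whose FPKM averaged 0.5 or more across all 6 libraries were tested with edgeR 4.0.16 (R 4.3.3; TMM, quasi-likelihood, common biological coefficient of variation 8.51%), without covariates. Alternatives used other filters and scalings, DESeq2 1.42.0, limma 3.58.1 (voom, or log2 of FPKM or TPM plus 1, or FPKM plus 0.1), protein-coding genes only, a replicate block and each library left out.

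The naming rule took the 10 members, CNR1, CDKN2A and MTAP (as checks of the labels and the line, whether tested or not) and up to 4 genes per list with the smallest p among those called. ACSL4, ACSL6, LPCAT3, CDKN2B and genes overlapping a member were added after their values were seen. The same holds for the named genes of the lists of MDA-MB-231, receptor and luminal, and embryonic kidney genes. The members and lists were chosen with earlier results of these data known.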

Additional observations from a re-analysis of the deposited data

How the results depend on the processing

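Over 19 alternatives, ACSL1, ACSL3, ACSL5, LPCAT2, LPCAT4, MBOAT2 and AGPAT2 kept their direction and call, LPCAT1 gained a call in 2 and MBOAT7 lost it in 8, as described above. Requiring more than a 2-fold change left 0 of the 8 called members and 926 of 7607 called genes. With library totals alone and with limma on TPM, 1 acyl-CoA thioesterase was called in place of 3. With each library left out in turn, 7 to 8 members, 6181 to 8624 genes, 7 to 12 lysophospholipid acyltransferases (7 without Vector replicate 1 or replicate 3, against 11), 3 to 8 phospholipases A (3 without CB1 replicate 2 or without Vector replicate 1 or replicate 2, against 6) and 1 to 4 thioesterases (1 without Vector replicate 1 or replicate 2) were called. The highest counts of genes (8624), lysophospholipid acyltransferases (12) and phospholipases A (8) came without CB1 replicate 1. Each of these fits rests on fewer libraries, and the cause of the differences was not tested.

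The replicate numbers did not pair the libraries: the correlations of same-numbered libraries' deviations were -0.144, -0.0762 and -0.0334. With the number as a replicate block, 7142 genes, 7 members (without MBOAT7) and 3 phospholipases A were called. No library correlated best with the library of its own number in the other group.

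Depth limits MBOAT1 most, at 63 to 90 counts per library. Counting without a stated strand limits ACSL5, which overlaps ZDHHC6.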

Other observations

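Enzymes that act on the products of the acyl-chain enzymes moved in both directions. Of 20 phospholipid head group genes tested, 6 were lower and 3 higher in CB1, beside 25.4% and 24.4% of all tested genes. All 3 lipins, which turn phosphatidic acid into diacylglycerol, were lower: LPIN1 averaged 51.9 ± 4.86 CPM in CB1 and 153.0 ± 4.61 CPM in Vector, LPIN2 145.1 ± 13.4 CPM in CB1 and 227.7 ± 9.16 CPM in Vector, and LPIN3 17.6 ± 2.57 CPM in CB1 and 30.7 ± 0.89 CPM in Vector (SD, n = 3 each). Their log2 changes were -1.56, -0.65 and -0.80 (edgeR adjusted p = 9.9e-08, 3.7e-05 and 6.5e-05). PEMT, which methylates phosphatidylethanolamine to phosphatidylcholine, was higher, at 36.1, 31.0 and 27.0 CPM in CB1, against 20.5, 18.1 and 18.2 CPM in Vector (log2 change 0.73, edgeR adjusted p = 2.1e-04).

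Acyl-CoA thioesterases, which undo the step of the synthetases, had 3 of 8 tested genes higher and none lower in CB1. Of all tested genes, 24.4% were higher and 25.4% lower. Only 1 thioesterase was called without Vector replicate 1, without Vector replicate 2, with library totals alone or with limma on TPM. ACOT7 had 136.7, 119.6 and 114.8 CPM in CB1, against 80.0, 78.4 and 78.8 CPM in Vector (log2 change 0.65, edgeR adjusted p = 4.0e-05). ACOT8, a peroxisomal thioesterase, and THEM4 had log2 changes of 0.31 and 0.23 (edgeR adjusted p = 0.017 and 0.042). Of 12 phospholipases A and related lipid hydrolases tested, 4 were higher and 2 lower, beside 24.4% and 25.4% of all tested genes. In all, 3 were called without CB1 replicate 2, without Vector replicate 1, without Vector replicate 2 or with the replicate block. PNPLA8, a calcium-independent phospholipase of mitochondria and peroxisomes, averaged 28.4 ± 1.83 CPM in CB1 and 45.6 ± 2.12 CPM in Vector (SD, n = 3 each; log2 change -0.68). PAFAH1B3, a catalytic subunit of an enzyme that inactivates platelet-activating factor, had 56.7, 49.5 and 40.7 CPM in CB1, against 29.6, 32.7 and 32.3 CPM in Vector (log2 change 0.63). ABHD12, which hydrolyses lysophosphatidylserine, had a log2 change of 0.33, and ABHD6, a monoacylglycerol lipase, one of -0.25 (edgeR adjusted p = 0.0049 and 0.028).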
